A study of Mus musculus with 4 samples.

Results

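Contacts of the mouse Tcra/Tcrd locus with 18 other autosomes were ranked by whole chromosome. The members were HindIII restriction fragments with a midpoint above 10 Mb on chromosomes 1 to 19 without chromosome 14, which carries the locus. Fragments in 5 loci were left out (mm9): 114.4 to 117.2 Mb on chromosome 12, 40.8 to 41.6 and 67.5 to 70.8 Mb on chromosome 6, 19 to 19.3 Mb on chromosome 16 and 19.2 to 19.5 Mb on chromosome 13. These hold the other antigen receptor genes. The 16 libraries together captured 417836 such fragments of 506753 fragments in all (82.5%). DN replicate 1 held 169737 of the members in any of its libraries and DN replicate 2 held 106842, against 212871 in B replicate 1 and 224085 in B replicate 2.

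The assay was 4C-seq: fixed chromatin is cut with HindIII, its ends are ligated, and inverse PCR from 1 viewpoint fragment reads out the fragments joined to it. DN (CD4 and CD8 double-negative) thymocytes came from C57BL/6 Rag2-/- mice 3 weeks old, pooled as litters per the labels. Naive B cells were labelled as wild type C57BL/6 spleen, and their protocol text repeats that of the thymocytes, so their isolation and age are not given in the sources used here. There were 2 DN and 2 B samples, and libraries were made in each of them from 4 viewpoints: TEA (the T early alpha promoter), INT1 and INT2 (intergenic elements of the locus) and Ed (the Tcrd enhancer). Rag2 is needed to cut antigen receptor genes, so thymocytes without it stop at the DN stage with their antigen receptor genes unrearranged. The cell types differ at once in tissue, genotype and sequencing folder (per the file headers the DN samples had a folder each and the B samples shared 1), and these cannot be told apart. 4C values hold no expression, so the cell type labels were not checked against markers.

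In the interphase nucleus each chromosome occupies a territory of its own, and most ligations of a viewpoint stay within its chromosome. Contacts with other chromosomes (trans contacts) are spread thinly over many fragments, so most fragments are not captured in a given library. Gene-rich chromosomes tend to lie nearer the centre of the nucleus and gene-poor ones nearer its edge. Mouse chromosomes have their centromere at the low-coordinate end, and the limit of 10 Mb keeps fragments near it out.

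The quantity compared was the relative density of a chromosome, namely its captured fragments per Mb divided by the captured fragments per Mb of all 18 autosomes together in the same library. A value of 1 is the average of these autosomes. A fragment counted once however many reads it had. By chromosome and library, captured fragments had 17.9 to 159 reads on average. The libraries had 1208069 to 15023229 reads in DN and 3523931 to 17333968 in B, and 17447 to 76621 member fragments in DN against 28918 to 106833 in B. Summed over the 4 viewpoints, DN replicate 2 stood apart with 125223 member fragments, beside 203204 in DN replicate 1, 262183 in B replicate 1 and 282461 in B replicate 2. Members took 62.0% and 53.4% of reads in the DN samples (mean of 4 viewpoints) and 72.0% and 72.5% in the B samples. That difference of means, 57.7% ± 6.03 in DN against 72.2% ± 0.385 in B (SD, n = 2 each), had an exact permutation p of 0.333 (two-sided), the smallest that 2 against 2 samples allow. Relative density is a share and does not carry this difference in total, but it lies beside every comparison of DN with B below.

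Fragments were captured on all 18 autosomes nearly in proportion to length. How many of them came from ligation without contact was not tested. The share of member fragments on a chromosome followed its Mb with Pearson's r of 0.967 to 0.995 over the 18 chromosomes of a library. Of the 288 values (18 chromosomes in 16 libraries), the lowest relative density was 0.863, on chromosome 19 from TEA in DN replicate 2 (1012 fragments, 95% interval 0.812 to 0.917). The highest was 1.18, on chromosome 3 from Ed in DN replicate 1 (1816 fragments, 95% interval 1.13 to 1.24). These Wilson intervals cover counting error within 1 library only, not the spread between samples. PCR copies of a molecule were not told apart by identifiers, but a fragment counted once however many reads it had. Within a library the SD of log2 relative density over chromosomes was 0.0484 to 0.115, and counting alone gave 0.0196 to 0.0485. The variance between chromosomes was therefore 2.05 to 11.6 times that of counting.

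By the mean of the 2 samples, chromosomes 3 and 4 led the order in both cell types, though not in every sample. In DN replicate 2 chromosome 17 was highest (1.10), and in B replicate 2 chromosome 12 (1.05) stood above chromosome 4 (1.04). Averaged over viewpoints, chromosome 3 stood at 1.08 and 1.08 in the DN samples and 1.05 and 1.07 in the B samples. Chromosome 4 stood at 1.07 and 1.07 in DN and at 1.07 and 1.04 in B, with both DN values the higher before rounding. Both were above 1 in all 16 libraries. At the other end, chromosome 11 stood at 0.957 and 0.911 in DN and 0.931 and 0.911 in B, chromosome 19 at 0.930 and 0.913 in DN and 0.950 and 0.953 in B, and chromosome 9 at 0.927 and 0.928 in DN and 0.955 and 0.952 in B. These 3 were below 1 in all 16 libraries, as were chromosomes 2 and 8. The whole span between the densest and the least dense chromosome was thus 1.07 to 0.928 (mean of 4 samples).

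**Figure D1:**
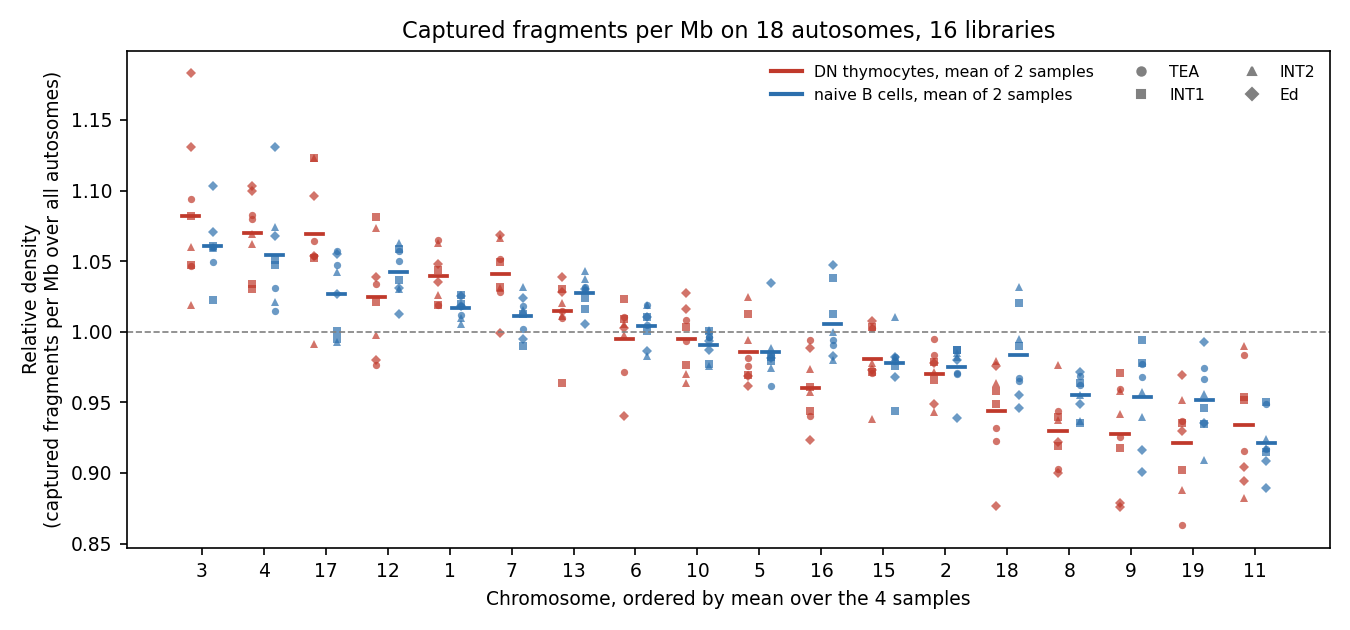
Relative density (captured fragments per Mb of a chromosome over that of all 18 autosomes) for 18 chromosomes in 16 libraries. Chromosomes run along the x axis by their mean over the 4 samples, symbols mark the viewpoint, and bars mark the mean of the 2 DN and of the 2 B samples. Chromosome 3 lies above 1 in all 16 libraries and chromosome 11 below 1 in all 16.

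Each chromosome was set against the average of 1 with limma on log2 values of the 4 samples (mean of 4 viewpoints), with Benjamini-Hochberg adjustment over 18. In this test 16 of 18 chromosomes (88.9%) stood off the average, 7 above it (38.9%) and 9 below it (50%). With the log2 distance from the average and then the limma adjusted p in parentheses, those above it were chromosome 3 (log2 0.10, adjusted p = 6.56e-05), 4 (0.09, 0.000111), 17 (0.07, 0.00464), 12 (0.05, 0.00410), 1 (0.04, 0.00602), 7 (0.04, 0.00769) and 13 (0.03, 0.00925). Below it were chromosome 11 (log2 -0.11, adjusted p = 0.000255), 19 (-0.09, 6.56e-05), 9 (-0.09, 6.56e-05), 8 (-0.09, 0.000237), 18 (-0.05, 0.00232), 2 (-0.04, 0.00410), 15 (-0.03, 0.0243), 16 (-0.03, 0.0180) and 5 (-0.02, 0.0422). Chromosomes 6 (adjusted p = 0.915) and 10 (adjusted p = 0.207) did not pass. Whether the samples came from separate litters is not in the labels, so a p-value here rests on a spread that may be technical. Shares of a total are tied to each other, so 1 chromosome above the average puts others below it.

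These calls differ in how far they hold. Over 13 alternatives (other denominators, limits, depths, centrings, a mean-variance trend, and each sample left out) chromosomes 3, 4 and 9 passed on the same side in all 13, chromosome 19 in 12, and chromosomes 8 and 11 in 11. Chromosomes 1, 2, 17 and 18 passed in 10. Chromosomes 12 and 13 passed in 8, 7 and 15 in 7, and 5 and 16 in 6. Chromosome 5 passed above the average in another, with fragments seen in any library in place of Mb (log2 0.03, limma adjusted p = 0.0262). Without B replicate 1, and likewise without B replicate 2, 4 chromosomes passed (2 above and 2 below the average), the lone B sample being assumed to vary like DN. With summed RPM in place of fragments 8 passed. With the median of a chromosome's 1 Mb windows in its place 9 passed, and chromosome 7 then stood at log2 0.01 (limma adjusted p = 0.431). Chromosome 4 then stood at log2 0.04, behind chromosomes 3 (0.080), 17 (0.079) and 1 (0.068).

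Neighbours in the order were mostly not separable. Of the 17 pairs of neighbours, 2 kept their order in all 4 samples (13 above 6, and 18 above 8). Between samples the 18 values correlated with Pearson's r of 0.905 for the 2 DN samples, 0.964 for the 2 B samples and 0.841 to 0.904 for a DN with a B sample. These points are the same chromosomes, with the same length and cut sites, in libraries of different depth.

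DN and B were then compared chromosome by chromosome. In limma on the mean of 4 viewpoints 0 of 18 chromosomes (0%) passed, while 4 had an unadjusted p under 0.05 (16, 18, 19 and 9, all lower in DN). Chromosome 16, which carries the immunoglobulin lambda genes, stood at 0.963 and 0.957 in DN against 1.01 and 0.999 in B. That is a log2 difference of -0.07 (SE 0.0154, limma adjusted p = 0.0721). Chromosome 18 stood at 0.959 and 0.930 in DN against 0.982 and 0.985 in B (log2 -0.06, SE 0.0189, limma adjusted p = 0.135). Chromosome 19 stood at 0.930 and 0.913 in DN against 0.950 and 0.953 in B (log2 -0.05, SE 0.0161, limma adjusted p = 0.135). Both DN samples lay below both B samples on all 3 in captured fragments. With summed RPM in place of fragments the log2 difference turned to 0.0370 on chromosome 16 and 0.0601 on chromosome 18, and neither passed in limma.

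At the other end of this comparison was chromosome 17, which carries the major histocompatibility complex. It stood at 1.04 and 1.10 in DN against 1.02 and 1.04 in B (log2 0.06, SE 0.0286, limma adjusted p = 0.227). DN replicate 2 alone was well above the B samples. Both DN samples lay above both B samples on 5 chromosomes (27.8%: 1, 3, 4, 7 and 17) and below them on 7 (38.9%: 6, 8, 9, 13, 16, 18 and 19), and the groups overlapped on 6. All these differences were small, from -4.50% on chromosome 16 to 4.10% on chromosome 17. The count of calls depended on the samples and the depth: without DN replicate 1, which leaves DN replicate 2 as the lone DN sample assumed to vary like B, 11 passed (4 higher and 7 lower in DN). With the fragments expected at equal reads within a viewpoint 5 passed (17 higher, and 9, 16, 18 and 19 lower in DN). No reads were drawn at random for this, so the added sampling error of thinner libraries is missing from it. With the replicate number as a block 3 passed (17 higher, 16 and 18 lower in DN).

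**Figure D2:**
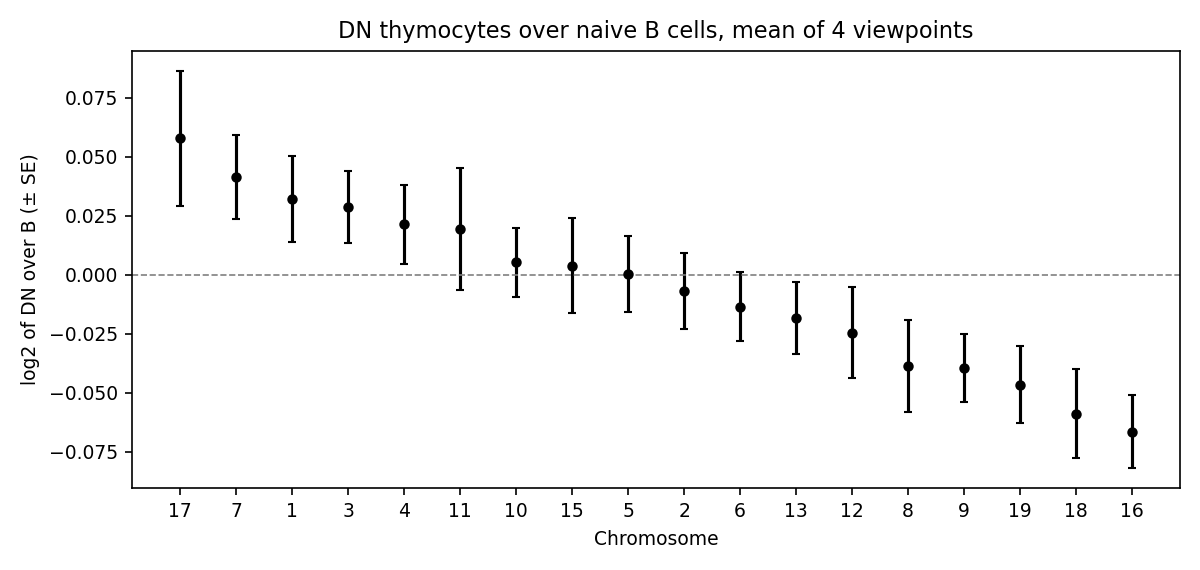
Log2 of relative density in DN thymocytes over naive B cells for 18 chromosomes (mean of 4 viewpoints, 2 DN and 2 B samples). Points are limma estimates and bars their SE. Chromosome 17 is at 0.06 and chromosome 16 at -0.07, the 2 ends of the range, and 0 of 18 chromosomes passed the adjusted threshold of 0.05.

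Fitted for each viewpoint alone, limma called 2 of 18 chromosomes with INT1 (11.1%) and 0 (0%) with each of TEA, INT2 and Ed. Unadjusted p was under 0.05 for 3 chromosomes with INT1, 3 with TEA, 0 with INT2 and 2 with Ed. The pair of DN libraries was higher than the pair of B libraries without overlap on 4 chromosomes with TEA (22.2%), 3 with INT1 (16.7%), 2 with INT2 (11.1%) and 3 with Ed (16.7%). It was lower without overlap on 6 with TEA (33.3%), 5 with INT1 (27.8%), 6 with INT2 (33.3%) and 3 with Ed (16.7%). From INT1 chromosome 16 stood at 0.961 and 0.944 in DN against 1.01 and 1.04 in B (log2 -0.11, SE 0.0318, limma adjusted p = 0.0176). Chromosome 17 stood at 1.05 and 1.12 in DN against 0.995 and 1.001 in B (log2 0.12, SE 0.0321, limma adjusted p = 0.00837). The groups did not overlap on either. In that fit the spread of each chromosome was drawn close to that of all 18 together. With DN replicate 1, DN replicate 2, B replicate 1 or B replicate 2 left out, 0 chromosomes passed from INT1, and edgeR on the recovered reads called 0 from INT1, INT2 or Ed (unadjusted 0, 1 and 0). The count from TEA was 12 without DN replicate 1, 5 with equal reads and 1 with the replicate number as a block, and that from INT2 was 1 without DN replicate 1.

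Chromosome 16 leaned the same way in the means from the other viewpoints without passing. The viewpoints were read from the same samples, so they are not independent. From TEA it averaged 0.967 ± 0.0379 in DN thymocytes and 0.992 ± 0.00268 in B cells (SD, n = 2 each). From INT2 it averaged 0.965 ± 0.0114 in DN and 0.990 ± 0.0138 in B, and from Ed 0.956 ± 0.0461 in DN and 1.01 ± 0.0455 in B. The groups overlapped with TEA and Ed but not with INT2. From TEA, DN replicate 1 (0.994) was level with the B samples (0.990 and 0.994). The test of whether the DN to B difference depended on the viewpoint (limma F test of the interaction, sample as a block) passed for 0 of 18 chromosomes (0%), with 0 at an unadjusted p under 0.05 and a lowest adjusted p of 0.557. Without DN replicate 1 that test passed for 2 chromosomes, and without DN replicate 2 for 1.

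The viewpoints themselves differed on 3 of 18 chromosomes (16.7%; limma F test over 16 libraries, sample as a block, 5 at an unadjusted p under 0.05), and on chromosomes 3 and 9 it was Ed that stood off. Chromosome 9 averaged 0.957 ± 0.0226 with TEA, 0.965 ± 0.0333 with INT1, 0.949 ± 0.00983 with INT2 and 0.893 ± 0.0191 with Ed (SD, n = 4 samples, limma adjusted p = 0.00277). Chromosome 3 averaged 1.06 ± 0.0219, 1.05 ± 0.0251, 1.05 ± 0.0205 and 1.12 ± 0.0477 in the same order (limma adjusted p = 0.0294). Chromosome 18 averaged 0.947 ± 0.0228 with TEA, 0.979 ± 0.0325 with INT1, 0.992 ± 0.0290 with INT2 and 0.938 ± 0.0431 with Ed (limma adjusted p = 0.0376). The Ed libraries were also the thinnest, with 8.08 to 10.3 captured fragments per Mb in DN and 13.4 to 17.8 in B, and the part of depth in this difference was not tested. The fragments expected at equal reads within each viewpoint, which leaves Ed the shallowest, gave 5 chromosomes. Chromosome 9 passed with each sample left out in turn, and without DN replicate 2 or without B replicate 2 it was the only one. Chromosome 3 did not pass without DN replicate 1 (limma adjusted p = 0.112), DN replicate 2 (0.147) or B replicate 2 (0.116). Chromosome 18 did not pass without DN replicate 2 (limma adjusted p = 0.150), B replicate 1 (0.172) or B replicate 2 (0.271). With summed RPM chromosome 3 was the only one that passed.

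**Figure D3:**
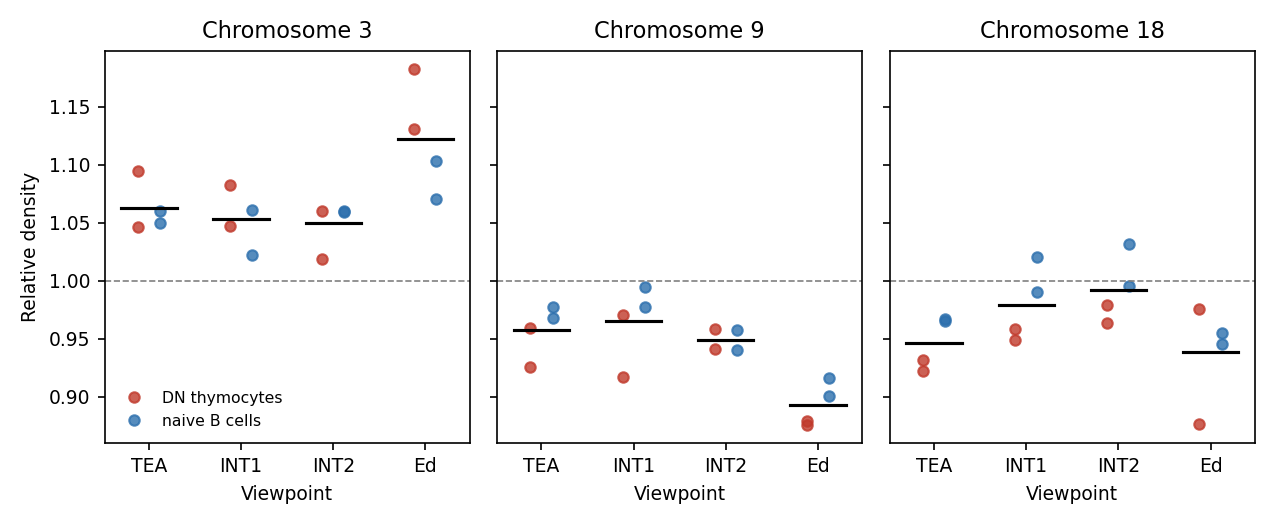
Relative density of the 3 chromosomes on which the viewpoints differed, by viewpoint (TEA, INT1, INT2, Ed) and cell type, with 1 point for each library. On chromosome 9 the Ed libraries average 0.893, below the other 3 viewpoints, and on chromosome 3 they average 1.12, above them.

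Chromosome size and gene number followed the order only loosely. The number of protein-coding genes was taken from RefSeq for GRCm38.p6, another build than mm9, and divided by the chromosome's length in mm9 (its last fragment end). It ran from 5.60 genes per Mb on chromosome 12 to 13.3 on chromosome 7. Over the 18 chromosomes the mean relative density had Pearson's r of 0.409 with length, -0.325 with genes per Mb and 0.501 with fragments seen in any library per Mb (185 on chromosome 7 to 201 on chromosome 3). The last measure comes from the same libraries, and it had r of -0.646 with genes per Mb, so these features are not separate. With fragments seen in place of Mb, chromosomes 5 and 13 changed side of the average. The order changed too: chromosome 7 then stood at log2 0.0978, ahead of chromosomes 4 (0.0730), 17 (0.0664) and 3 (0.0429). Chromosome 8 then stood at -0.0271.

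Over all 18 chromosomes 38.9% were called above the average and 50% below it, and shares close to these say nothing about a list. The 6 longest chromosomes (1, 2, 3, 4, 5 and 7) had a median relative density of 1.03, with 4 called above the average and 2 below it, while the median over all 18 was 0.989. The 6 shortest (13, 15, 16, 17, 18 and 19) had a median of 0.981, with 2 called above and 4 below. The 6 with the fewest genes per Mb (1, 3, 12, 13, 16 and 18) had a median of 1.02, with 4 called above and 2 below, and the 6 with the most (2, 7, 9, 11, 17 and 19) a median of 0.957, with 2 above and 4 below. Exceptions lay on both sides: gene-rich chromosomes 7 and 17 were above the average, and chromosome 18, with 5.62 genes per Mb, was below it.

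In fragments, the relation to length was steeper in both DN samples, and that to gene number less steep. The slope of log2 relative density on log2 length was 0.0780 and 0.0920 in the DN samples against 0.0435 and 0.0431 in the B samples. The slope on log2 genes per Mb was -0.0440 and -0.0313 in DN against -0.0642 and -0.0711 in B. Neither pair of groups overlapped, and both differences (0.0417 for length, 0.0300 for gene number) had an exact permutation p of 0.333 (two-sided), the smallest possible here. With summed RPM in place of fragments the difference in the slope on length turned to -0.0632. The spread over chromosomes was also wider in DN, with an SD of log2 relative density of 0.0667 and 0.0884 in DN against 0.0533 and 0.0580 in B (exact permutation p 0.333, two-sided). These SDs are of values averaged over the viewpoints of a sample. In single libraries the SD had a median of 0.0866 in DN and 0.0579 in B. Counting alone gave single libraries a median SD of 0.0364 in DN and 0.0245 in B. These counting values are not on the scale of the averaged samples. The part of counting in the difference between DN and B was not tested. The difference in the SD of the averaged samples was 0.0219 with all samples and 0.0111 without DN replicate 2. It was 0.00731 with summed RPM in place of fragments, where the DN and B samples overlapped.

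Among the 6 longest chromosomes both DN samples lay above both B samples on 4 and below them on 0. Among the 6 shortest they lay above on 1 and below on 4. Over all 18 they lay above on 27.8% and below on 38.9%. The median log2 of DN over B was 0.03 for the longest, -0.03 for the shortest and near 0 (-0.0033) for all 18, and 0 chromosomes of either list passed in limma.

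**Figure D4:**
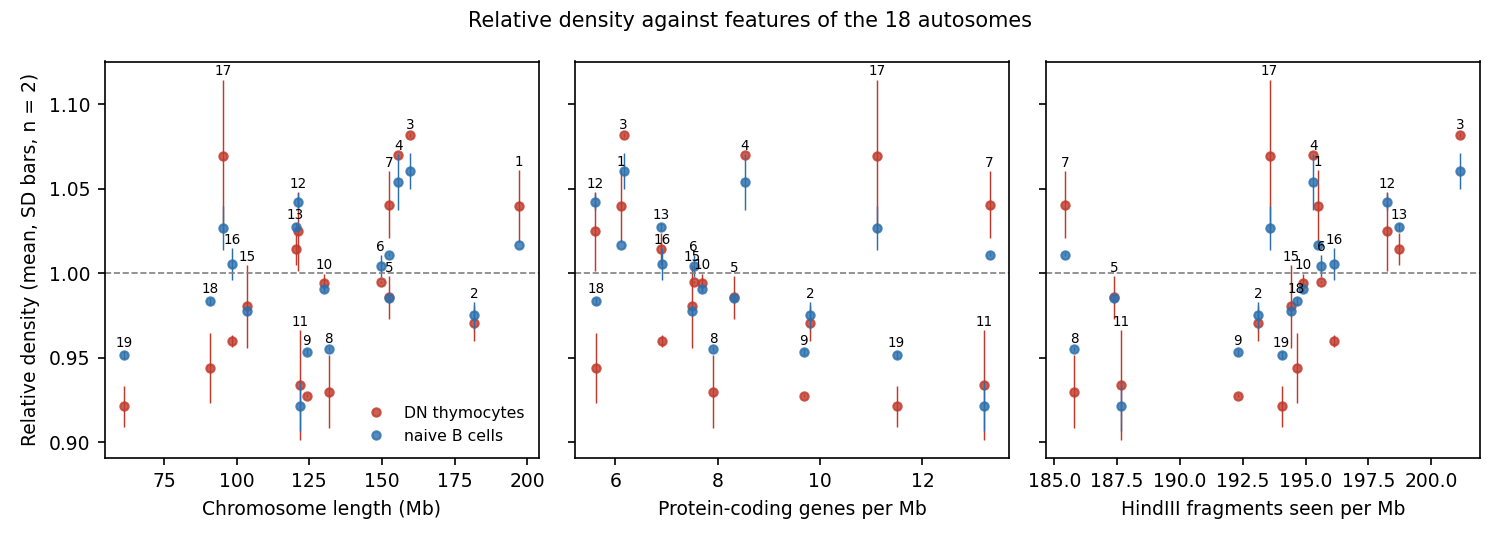
Mean relative density of 18 chromosomes in DN thymocytes and in naive B cells (n = 2 samples each, SD bars) against chromosome length, protein-coding genes per Mb and fragments seen in any library per Mb. Slopes on log2 length are 0.0780 and 0.0920 in DN samples and 0.0435 and 0.0431 in B samples, and the points scatter widely around any line.

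Lists of chromosomes with a shared feature were described by their counts. Chromosomes 6, 12, 13 and 16 carry the other antigen receptor loci, whose fragments are left out here. Their median relative density was 1.01, with 2 called above the average and 1 below it (38.9% and 50% over all 18). Both DN samples lay below both B samples on 3 of these 4 and above them on 0, with a median log2 of DN over B of -0.02. The background over all 18 was 38.9% below and 27.8% above. Chromosome 12, with the immunoglobulin heavy chain genes, was the overlapping one, at 1.04 and 1.01 in DN against 1.04 and 1.05 in B. Chromosome 6, with the immunoglobulin kappa and Tcrb genes, stood at 0.995 and 0.994 in DN against 0.9996 and 1.01 in B, and chromosome 13, with Tcrg, at 1.02 and 1.01 in DN against 1.03 and 1.03 in B.

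Chromosomes 12, 15, 16, 18 and 19 are known to carry ribosomal RNA gene arrays, which gather in nucleoli, in laboratory strains. Their median relative density was 0.979, with 1 called above the average and 4 below it (38.9% and 50% over all 18). Both DN samples lay below both B samples on 3 of the 5 and above them on 0 (38.9% and 27.8% over all 18), and the median log2 of DN over B was -0.05. All of these except chromosome 12 are also among the 6 shortest, so length and this feature cannot be told apart here.

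Most of the variance over 1 Mb windows lay within chromosomes. Over 2141 whole windows of 1 Mb the median relative density was 0.946, and the central 80% of windows lay between 0.767 and 1.30. Differences between chromosomes made up 3.14% and 2.87% of the variance over windows in the DN samples and 2.38% and 2.65% in the B samples. Counting error and extreme windows are part of that variance and were not taken out. Windows above 1.5 numbered 75 and those below 0.5 numbered 8. Chromosome 7 held 15 of the windows above 1.5, and chromosomes 16 and 18 held 0.

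The densest window of chromosome 4, at 146 to 147 Mb, was also the densest of all, with a relative density of 3.34 and 3.40 in DN and 3.46 and 3.46 in B. The densest window of chromosome 3 was at 91 to 92 Mb, with 2.13 and 2.54 in DN and 1.82 and 1.77 in B. On chromosome 17 it was at 13 to 14 Mb, with 1.73 and 1.5004 in DN and 1.66 and 1.55 in B. Both dense and sparse chromosomes held such windows. On chromosome 9 the densest lay at 11 to 12 Mb (1.63 and 1.79 in DN, 1.39 and 1.30 in B), on chromosome 19 at 39 to 40 Mb (1.69 and 2.21 in DN, 1.499 and 1.54 in B) and on chromosome 11 at 48 to 49 Mb (1.58 and 1.76 in DN, 1.30 and 1.43 in B). Chosen after the values were seen, the next densest windows overall were 145 to 146 Mb on chromosome 4 (mean 3.36 ± 0.316, SD of 4 samples) and 33 to 34 and 32 to 33 Mb on chromosome 7 (3.01 ± 0.160 and 2.80 ± 0.140). How uniquely reads map in these windows was not tested, and no annotation of mm9 was at hand to name genes in them.

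**Figure D5:**
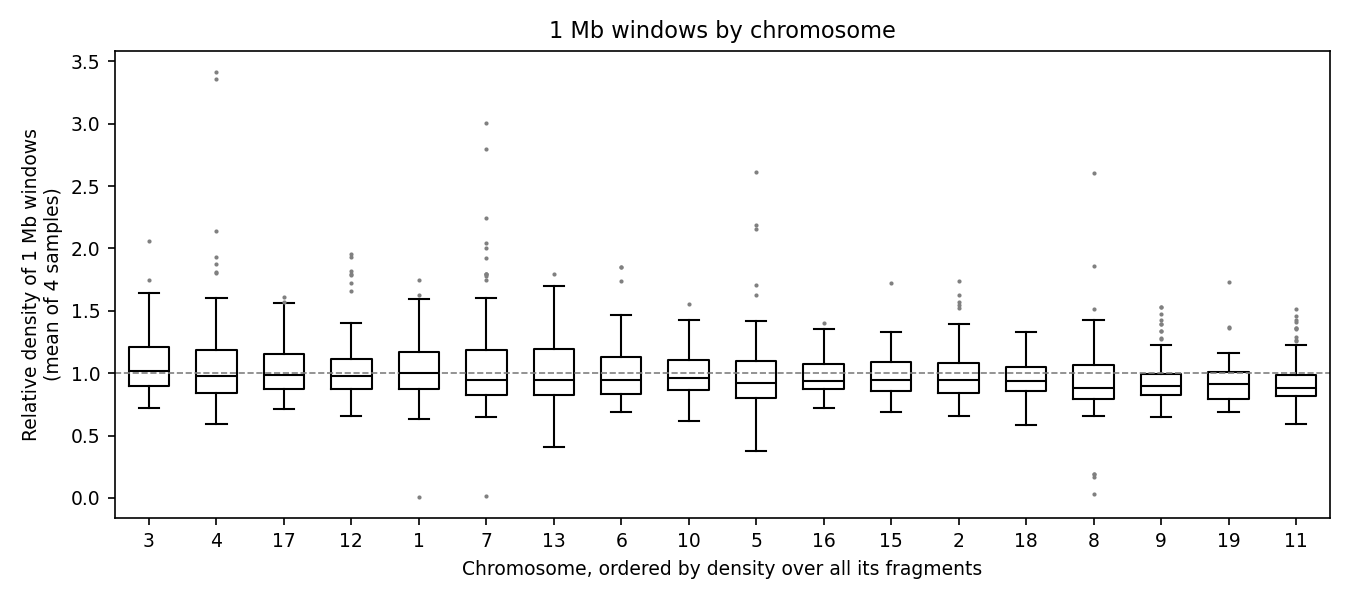
Relative density of 1 Mb windows (mean of 4 samples) for 18 chromosomes, ordered along the x axis by the density over all their fragments. Windows spread far wider within a chromosome than chromosomes differ from each other: between-chromosome differences are 2.38% to 3.14% of the variance, and single windows reach 3.41 on chromosome 4.

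The window test located no difference between DN and B. In limma 0 of 2164 windows (0%) passed, with 293 at an unadjusted p under 0.05 (13.5%), 152 higher and 141 lower in DN. The lowest adjusted p was 0.0654, for 27 to 28 Mb on chromosome 11, with a relative density of 1.57 and 1.81 in DN against 1.13 and 1.14 in B. Without DN replicate 1 the test passed for 531 windows (252 higher and 279 lower in DN), without DN replicate 2 for 13, and with equal reads for 95 (76 higher and 19 lower in DN). Between samples the windows correlated with r of 0.862 for the DN samples, 0.881 for the B samples and 0.784 to 0.857 for a DN with a B sample.

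Density also differed along the chromosome. The last 10 Mb of a chromosome, its end away from the centromere, had a lower density than the rest in all 4 samples on 12 of 18 chromosomes. The ratio of the end to the rest had a median of 0.882 over chromosomes. It compares captured fragments per Mb. Whether the ends hold fewer HindIII fragments, or fewer to which reads map uniquely, was not tested. It was lowest on chromosome 7, at 0.795 and 0.680 in DN and 0.798 and 0.786 in B. Chromosomes 17 and 18 were the 2 with a ratio above 1 in all 4 samples, and chromosome 18 was highest, at 1.10 and 1.21 in DN and 1.07 and 1.07 in B. The median over chromosomes was 0.912 and 0.845 in the DN samples against 0.915 and 0.897 in the B samples, which overlap.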

How the data were processed

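The deposited files list HindIII fragments with values in RPM (reads scaled to a common library total), 1 file per viewpoint and sample, and per the file headers each came from a sequencing folder. Per the submitters' processing notes the authors used CASAVA, Bowtie and the build mm9; no version is given there. The 8 files of averaged replicates were not used. The RPM values were whole multiples of each library's lowest value for 99.999 to 100% of values (tolerance 0.01 read), which gave depths of 1208069 to 17333968 reads; those of DN replicate 2 from TEA are less certain, because its unit lies close to a rounding step.

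Fragments with a value above 0 counted as captured. Counts per Mb over the library's own average were taken as log2 and averaged over the 4 viewpoints of a sample. For 1 Mb windows the captured fragments of the 4 viewpoints were summed per sample instead, so deeper viewpoints weigh more there. limma 3.58.1 in R 4.3.3 compared 2 DN with 2 B samples, two-sided, with Benjamini-Hochberg adjustment over 18 chromosomes or over the windows tested (a mean of at least 10 captured fragments per sample, prior count 0.5) and a threshold of 0.05. edgeR 4.0.16 was run on recovered reads. Tables were made with Python 3.11.15. Single values were compared by exact permutation over samples.

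The named items are all 18 chromosomes, with full statistics for those called or, where none was called, the 3 with the smallest p, and the densest 1 Mb window of the 3 densest and 3 least dense chromosomes. Members, lists and tests were chosen with earlier results of these data known. Alternatives were other denominators, capture at 2 reads, summed RPM, limits of 3 and 20 Mb, equal reads, the median chromosome as 0, TMM factors, 2 Mb windows, a filter at 50, a replicate block and each sample left out. Equal reads means the number of fragments expected at the member reads of the viewpoint's shallowest library, without a random draw. The median window was added after seeing the data.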

Additional observations from a re-analysis of the deposited data

Results flagged for a closer look

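Chromosomes X and Y were outside the 18 autosomes compared and still gave signal. Chromosome X had a relative density, on the scale of the autosomes, of 1.21 in DN replicate 1 and 1.28 in DN replicate 2, and of 1.21 in B replicate 1 and 1.24 in B replicate 2 (mean of 4 viewpoints). All 4 values lie above every autosome's mean, of which the highest was 1.07. They are per Mb. The number of HindIII fragments on chromosome X and how uniquely reads map there were not tested. DN and B overlapped (exact permutation p 0.667, two-sided). Chromosome Y held 201 captured fragments in DN replicate 1 and 220 in DN replicate 2, and 177 in B replicate 1 and 207 in B replicate 2, summed over viewpoints.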

How the results depend on the processing

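The number of chromosomes called between DN and B on the mean of 4 viewpoints was 0, and it was 1 with a limit of 3 Mb (16 lower in DN), 5 with equal reads, 3 with the replicate block and 0 to 11 with each sample left out (11 without DN replicate 1). From TEA it was 5 with equal reads, 1 with the replicate block and 0 to 12 with each sample left out (12 without DN replicate 1). From INT1 the 2 calls became 1 with capture at 2 reads, 1 with a limit of 3 Mb, 1 with a limit of 20 Mb, and 0 with summed RPM, the replicate block, edgeR or any sample left out. INT2 gave 0 to 1 and Ed 0 to 0 with each sample left out. The replicate block matched DN and B samples by replicate number alone. The difference of the DN samples and that of the B samples correlated over 18 chromosomes with r of 0.303 (mean of viewpoints). By viewpoint r was 0.213 (TEA), -0.370 (INT1), 0.350 (INT2) and -0.148 (Ed). The 3 chromosomes that differed among viewpoints became 1 with summed RPM, 1 with a limit of 20 Mb, 5 with equal reads and 1 to 2 with each sample left out. The interaction gave 0 to 2. The 16 chromosomes off the average became 8 with summed RPM, 9 with the median window (added after seeing the data) and 4 to 17 with each sample left out. The windows called, 0 of 2164, became 95 with equal reads, 11 with the replicate block, 8 in 2 Mb windows, 5 with a filter at 50, 7 with TMM factors and 0 to 531 with each sample left out.

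The difference in the slope on length turned to -0.0632 with summed RPM. That in the spread over chromosomes fell from 0.0219 to 0.00731 with summed RPM. Against the average, chromosome 5 turned to 0.0253 and chromosome 13 to -0.00900 per fragment seen, chromosome 7 to -0.00607 with a limit of 20 Mb and chromosome 15 to 0.0107 with the median window. The DN over B values of chromosomes 16 and 18 turned to 0.0370 and 0.0601 with summed RPM. The cause of each was not tested. edgeR was not run for TEA or the mean of viewpoints, since the depth of 1 TEA library is uncertain. With 2 samples a group, 1 sample moved most of these counts, and thin libraries (17447 fragments at the lowest) limit differences of a few percent.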

Other observations

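How many fragments the replicates of a cell type both captured also differed by chromosome. From TEA 15224 fragments were captured in both DN replicates, 20.4% of the list of replicate 1 and 30.9% of that of replicate 2, and 28718 in both B replicates, 31.5% and 26.9% of the lists. Those lists held 74681 and 49326 fragments in DN and 91065 and 106833 in B, of 417836 members captured in any library. A longer list shares more by its length alone, so the DN and B shares cannot be set against each other. On chromosomes 1, 3 and 4 these shares were above those of all autosomes in both lists for all 8 pairs of replicates (4 viewpoints in DN and in B). On chromosomes 9, 11 and 16 they were below them in both lists for all 8. The number of captured fragments per Mb enters both this share and the relative density, so the measures are not independent.

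Windows with almost no captured fragment lay at 86 to 87 Mb on chromosome 1 (relative density 0.0112, mean of 4 samples), 42 to 43 Mb on chromosome 7 (0.0129) and 21 to 22 Mb on chromosome 8 (0.0304). Chromosome 8 held 4 of the 8 windows below 0.5. These stretches count in the Mb by which captured fragments are divided.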
